A study of Mus musculus with 3 samples.

Results

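Microglia and macrophages formed a small class among the cells that were sorted from mouse retinas as Müller glia (MG). They numbered 515 of 38621 cells that passed the quality limits of at least 1000 detected features, at most 100000 unique molecular identifiers (UMIs, 1 per captured mRNA molecule) and at most 15% mitochondrial UMIs. Cells were chosen by measured transcripts, and a cell is called a myeloid cell here when C1qa, C1qb, C1qc, Csf1r and Cx3cr1 together held at least 10 of every 10000 UMIs. Cells with 100 or more UMIs per 10000 of the immunoglobulin gene Igkc were left out (0, 0 and 1 cells of control, CCA and CCANT), as were cells with 30 or more of the MG genes Glul, Rlbp1, Aqp4 and Kcnj10 together (17, 12 and 22 cells). The control library held 190 of these cells, the CCA library 156 and the CCANT library 169.

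All 3 libraries came from mice carrying Glast-CreERT2, a tamoxifen-inducible Cre recombinase expressed in MG, and the R26-CAG-LSL-Tdt reporter, which makes the red protein tdTomato after recombination. Every mouse received tamoxifen (75 mg/kg) on 5 days from postnatal day 20 (P20), an intravitreal adeno-associated virus (AAV7m8) at P28, and was collected at P51. This schedule is that of the labels, and the study's methods give another dose and other days for tamoxifen. Control retinas received the vector AAV7m8-GFAP-GFP-LacZsh, with a promoter from the glial gene GFAP, green fluorescent protein and a hairpin RNA against the bacterial gene LacZ. CCA (cell cycle activator) retinas received AAV7m8-GFAP-cyclinD1-p27sh, which makes cyclin D1 and a hairpin RNA against the cell cycle inhibitor p27, mixed 9:1 with the control vector. CCANT retinas received the CCA mixture and then NMDA, an excitotoxic glutamate receptor agonist, at P35 and trichostatin A (TSA), a histone deacetylase inhibitor, at P37. Retinas were pooled, 2 to 4 per treatment, sorted for tdTomato and loaded as 1 library per treatment, so no difference between treatments could be tested against the spread between animals. According to the paper, areas of strong GFP signal were dissected out before the sort. At least 1 UMI of GFP, which only the control vector carried, was found in 48.5, 5.82 and 3.97% of control, CCA and CCANT MG. NMDA and TSA were given together, and no library received only 1 of them. The CCA and CCANT libraries were both compared with the same control library.

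Microglia are the resident macrophages of the retina and depend on signals through the receptor Csf1r. In the undisturbed retina they carry receptors such as P2ry12 and Cx3cr1, and after injury or exposure to cytokines they turn up genes for antigen presentation, chemokines, lipid handling and the interferon response. Other macrophages lie along vessels and the eye's borders or derive from blood monocytes, and they share many transcripts with microglia. Major histocompatibility complex (MHC) class II molecules present peptides to CD4+ T cells and are induced in microglia above all by interferon-γ, acting through factors such as Irf1 and Ciita.

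The myeloid cells made up 1.67% (exact binomial 95% interval 1.44 to 1.92%) of control cells, 1.19% (exact binomial 95% interval 1.01 to 1.40%) of CCA cells and 1.19% (exact binomial 95% interval 1.02 to 1.38%) of CCANT cells. These intervals, like all intervals below, cover counting error only. Because the sort was set to keep tdTomato-positive cells, the shares depended on how many other cells the gate let through, and they are not shares of the retina. At least 1 tdTomato UMI was found in 13, 20 and 13 of the myeloid cells (6.84, 12.8 and 7.69%), against 67.1, 80.2 and 59.5% of MG at their own depth. The median depth was 20586 UMIs per myeloid cell in control, 18997 in CCA and 13081 in CCANT, and the summed UMIs were 3994941, 2945792 and 2491031. Levels are given as UMIs scaled to 1000000 UMIs of the myeloid cells of a library (CPM), and ratios between libraries as log2 values with exact Poisson 95% intervals.

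The 5 rule genes held a median of 161, 145 and 146 UMIs per 10000 in control, CCA and CCANT, while 10, 2 and 6 cells lay just inside the limit, between 10 and 15, and 80, 59 and 45 cells just outside it, between 5 and 10. The class label fitted the pan-myeloid markers, but part of the cells also carried transcripts of other retinal cells. In control, CCA and CCANT, 20, 25 and 44 cells held 20 or more UMIs per 10000 of 6 rod genes. Clusters led by photoreceptor or neuronal genes are described below. All 14 pan-myeloid genes, among them Tyrobp and Fcer1g, which carry signals of activating receptors, and Spi1, the transcription factor PU.1, were measured, and none differed 2-fold from control in CCA or CCANT. Both microglial genes (Tmem119, 196, 185 and 219.6 CPM; Sall1, 85.4, 62.1 and 65.4 CPM) and the macrophage gene Ms4a7 (308, 520.1 and 689 CPM) were present in control, CCA and CCANT. Among border macrophage markers, Cd163, Cbr2 and Lyve1 were near 0, with Cd163 at 0 in every library. Mrc1 and Pf4 were seen, with at least 1 UMI of Mrc1 in 20.5, 19.9 and 32.5% of control, CCA and CCANT cells. For Pf4 the shares were 6.84, 10.3 and 21.3%. The defining neutrophil genes S100a8, S100a9 and Retnlg were at 0 throughout, and only Csf3r of that list was seen above 1 CPM. The 14 T and NK cell genes summed to 21.0, 24.4 and 30.1 CPM, the 10 dendritic cell genes to 147, 83.5 and 60.6 and the 15 monocyte genes to 686, 538 and 357.

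Some properties of the libraries moved with treatment. Control myeloid cells were from males by their transcripts, with 155 cells carrying Y-linked UMIs without Xist and none the reverse, and CCA cells were from females, with 129 cells carrying Xist. The CCANT library held both, 53 and 60 cells, and 10 further cells had both kinds of transcript, so sex and treatment could not be told apart between control and CCA. Within the CCANT library, its Y-linked cells were therefore also compared with control and its Xist cells with CCA. Rod transcripts summed to 1244 CPM in control, 2791 CPM in CCA and 5834 CPM in CCANT, and 12 and 14 of 15 tested rod genes were at least 2-fold above control in CCA and CCANT, against 1.42 and 2.34% of all tested genes. The 4 MG genes of the rule summed to 584, 532 and 654 CPM, which was 6.02, 6.06 and 8.25% of their level in MG. A core set of 160, 120 and 115 cells, with at least 50 UMIs per 10000 of the rule genes and under 20 of 6 rod genes, is used to repeat some of the values. Its rod genes summed to 801, 943 and 1240.3 CPM, and 0 and 6 of the 15 rod genes were past the 2-fold limit in it.

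Of 3940 genes that reached a mean of 50 CPM and a total of 50 UMIs over the libraries, 56 were at least 2-fold higher and 41 at least 2-fold lower in CCA than in control. The corresponding counts for CCANT were 92 and 78. These counts were 1.42 and 1.04% of the tested genes in CCA and 2.34 and 1.98% in CCANT, which is the background for the count of each gene list. In the Y-linked cells 58 of these 92 rises and 52 of these 78 falls were past the limit, and in the core cells 43 and 64. Of the same 3940 genes, 80 were past it upwards and 107 downwards in the Y-linked cells, and 61 and 96 in the core cells. Of the 56 rises and 41 falls in CCA, 36 and 22 were past the limit in the core cells, where 58 and 39 of the 3940 genes were past it. With the filter applied anew, 47 genes rose in CCANT in the core cells, 49 without the cells that the doublet caller Scrublet marked and 214 without the cells that carried macrophage markers. A gene is said to have risen or fallen only past this 2-fold limit. The median log2 ratio over all tested genes was −0.00072 for CCA and 0.018 for CCANT. Beside the rod genes, groups with several genes past the limit included antigen presentation, the interferon-γ GTPases, the type I interferon-stimulated genes, the chemokines and a set of macrophage genes, and they did not all move together in the CCA and CCANT libraries. The plot of summed list levels shows these groups side by side.

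**Figure D1:**
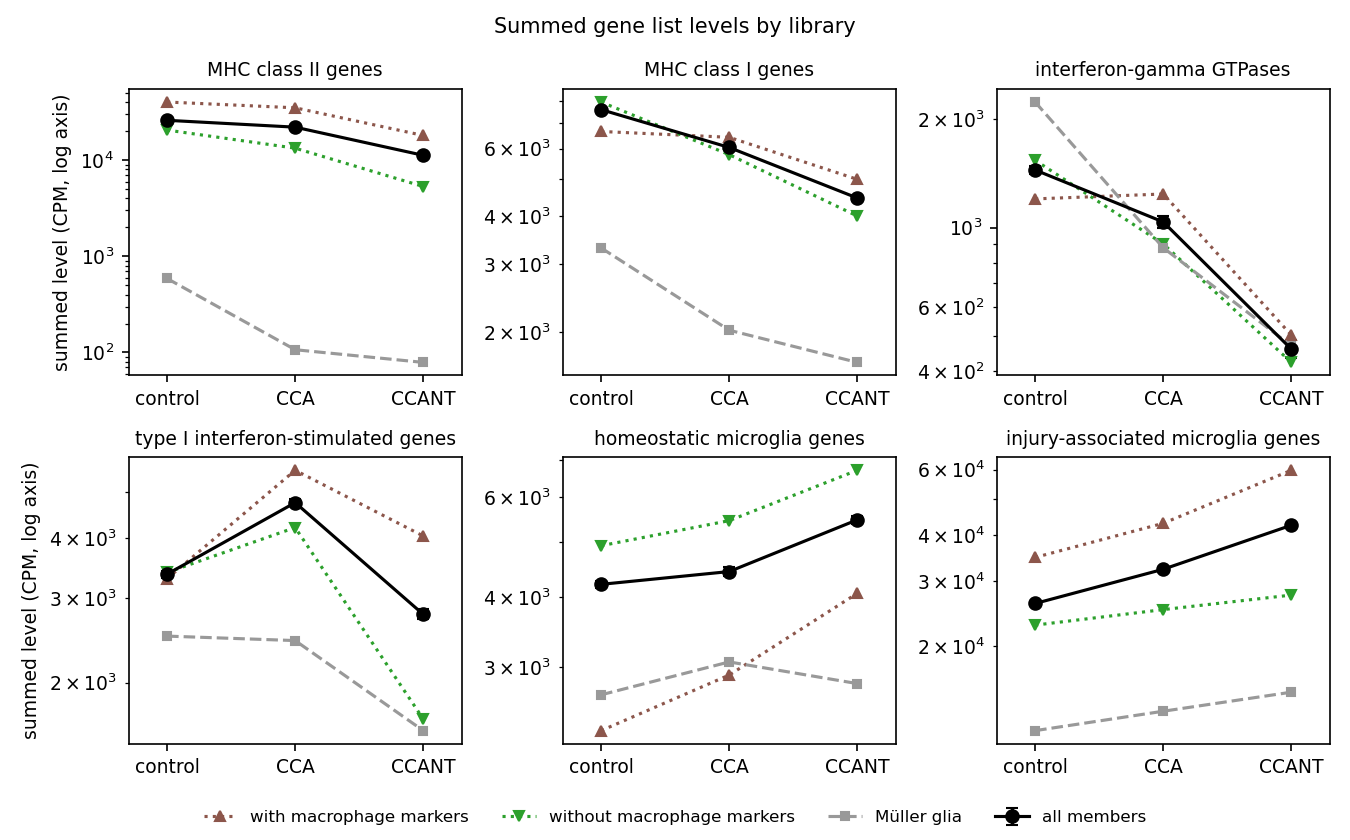
Summed level of each gene list in the myeloid cells of the control, CCA and CCANT libraries (CPM, log axis), with black points for all myeloid cells and their exact Poisson 95% intervals, triangles for the cells with (up) and without (down) at least 5 macrophage-marker UMIs per 10000, and grey squares for MG. MHC class II genes stood at 25976 CPM in control, 22043 CPM in CCA and 11230.3 CPM in CCANT, while homeostatic microglia genes lay between 4211 and 5478 CPM.

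MHC class II genes were lower in CCANT. Cd74, the invariant chain that guides class II molecules through the cell, was measured at 11480.0 CPM in control, 9323 CPM in CCA and 4933 CPM in CCANT, which gave −1.22 (−1.25 to −1.19) for CCANT against control and −0.30 (−0.32 to −0.28) for CCA on the log2 scale. H2-Aa, the class II α chain, stood at 4231 CPM in control, 3696 CPM in CCA and 1833 CPM in CCANT, and H2-Ab1, its β partner, at 4378, 3741 and 1813 CPM. The CCANT log2 ratios of these chains were −1.21 (−1.25 to −1.16) and −1.27 (−1.32 to −1.22). For H2-Eb1, another β chain, the values were 4352, 3987 and 1875 CPM, a log2 ratio of −1.22 (−1.26 to −1.17) in CCANT. Ciita, the transactivator that switches class II genes on, was measured at 235 CPM in control, 148 CPM in CCA and 103 CPM in CCANT, and H2-DMb1, which helps load peptides, at 315, 243 and 119.6 CPM. Both fell in CCANT, by 1.19 and 1.40 on the log2 scale.

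Of the 13 genes of the class II list, 8 passed the level filter. In CCANT, 6 of these 8 fell and none rose, where 1.98% of all tested genes fell, and H2-DMa and the costimulatory gene Cd86 stayed within the limit at log2 ratios of −0.94 and −0.52. In CCA none of the 8 rose or fell, where 1.42% of all tested genes rose and 1.04% fell. The list's sum was 25976 CPM in control, 22043 CPM in CCA and 11230.3 CPM in CCANT, that is −0.24 (−0.25 to −0.22) for CCA against control and −1.21 (−1.23 to −1.19) for CCANT on the log2 scale. The medians over its genes were −0.26 and −1.21. In the core cells the ratios were −0.13 and −1.10. Among Y-linked cells, CCANT against control gave −0.86, and among Xist cells, CCANT against CCA gave −1.27. Within CCANT alone, Xist cells held 9359 CPM and Y-linked cells 14409 CPM, a log2 ratio of −0.62 (−0.66 to −0.58). The CCA ratio to control compares cells of different sex, and the part of sex in it was not tested. Within the Y-linked cells only 1 of the 6 falls, that of H2-DMb1, was still past the limit, while Cd74 stood at −0.85, H2-Aa at −0.82, H2-Ab1 at −0.91, H2-Eb1 at −0.88 and Ciita at −0.92. MG of the same libraries carried 588, 107 and 78.9 CPM of these genes in control, CCA and CCANT.

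The lower sum went with a larger number of cells that were low in class II transcripts. Cd74, H2-Aa, H2-Ab1 and H2-Eb1 together fell below 10 UMIs per 10000 in 8 of 190 cells in control (4.21%, interval 1.84 to 8.13%), 52 of 156 cells in CCA (33.3%, interval 26.0 to 41.3%) and 95 of 169 cells in CCANT (56.2%, interval 48.4 to 63.8%). Cells at or above 100 per 10000 made up 72.6, 48.7 and 25.4%. The CCA library thus differed from control in its number of cells with low class II while its summed level differed little. Among Y-linked cells, the share below 10 was 1.29% in control and 45.3% in CCANT. Among Xist cells it was 32.6% in CCA and 60.0% in CCANT. In the core cells the shares were 0.625, 29.2 and 50.4%. After each cell was thinned to 2000 UMIs, which left out 8, 2 and 1 cells, H2-Aa was detected in 90.1, 61.0 and 39.3% of the myeloid cells of control, CCA and CCANT and in 9.89, 1.58 and 0.870% of MG. Without thinning, the shares of myeloid cells were 94.2, 73.1 and 49.1%. Cd74 was detected in 98.9, 75.3 and 53.6% of thinned myeloid cells and 22.3, 3.90 and 2.16% of thinned MG.

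**Figure D2:**
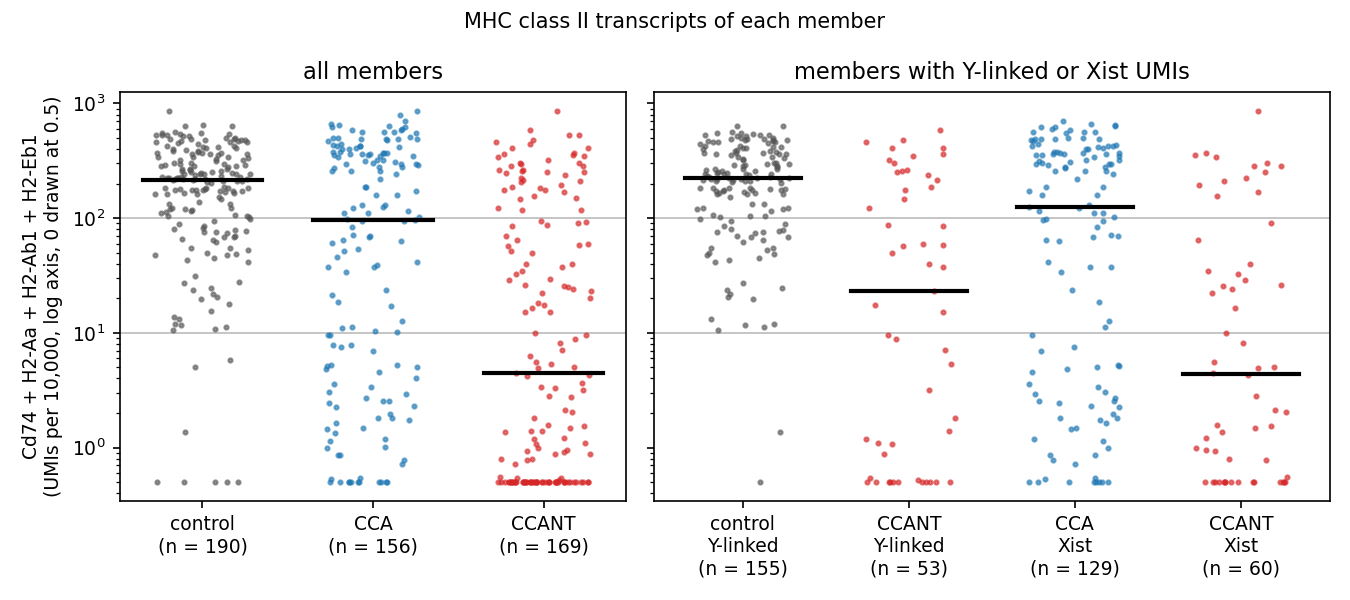
Summed UMIs of Cd74, H2-Aa, H2-Ab1 and H2-Eb1 per 10000 UMIs in each myeloid cell (log axis), by library (left) and for the cells with Y-linked or Xist transcripts (right), with 1 point per cell, cells at 0 drawn at 0.5 and a black line at the median. Below 10 per 10000 lay 8 control, 52 CCA and 95 CCANT cells.

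The promoters of class II genes are read by a factor complex over short conserved boxes, one of which, the Y box, was searched for as the letters CTGATTGG on both strands of the 300 bases around each gene's start (250 before, 50 after) in the RefSeq table for GRCm38.p6. These letters were found in 3 of 8 class II genes with an entry, H2-Aa, H2-Eb1 and H2-Oa, in 7 of 13 MHC class I genes, and in 4.70% of 27025 genes in the table. The match in H2-Aa (chr17:34287856-34287885, minus strand) and that in H2-Eb1 (chr17:34305794-34305823, plus strand) are shown as 30 bases each, because these genes held the letters and were past the limit in CCANT over all cells. Capitals mark the Y box letters, and a match is a description of the sequence and not evidence of binding.
H2-Aa: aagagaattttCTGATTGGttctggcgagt
H2-Eb1: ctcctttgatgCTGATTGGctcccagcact

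MHC class I genes, which present peptides to CD8+ T cells and were all measured above the filter, were lower by less. H2-K1, a classical class I heavy chain, stood at 2466 CPM in control, 1891 CPM in CCA and 1478 CPM in CCANT and the shared light chain B2m at 3385, 2993 and 2408 CPM. Neither fell past the limit. The list of 15 genes summed to 7582 CPM in control, 6043 CPM in CCA and 4462 CPM in CCANT, giving log2 ratios to control of −0.33 (−0.35 to −0.30) in CCA and −0.77 (−0.80 to −0.73) in CCANT. In CCANT 4 of 15 fell, H2-Q6, H2-Q7, the peptide transporter subunit Tap1 and the class I transactivator Nlrc5, where 1.98% of all tested genes fell, and in CCA none did. Of these 4 only Tap1 was past the limit within the Y-linked cells. Medians over the list were −0.22 and −0.90. Among Y-linked cells the CCANT ratio of the list's sum to control was −0.47, and among Xist cells that to CCA was −0.53. Within CCANT alone, the ratio of Xist to Y-linked cells was −0.38.

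In their summed levels over all cells, genes induced mainly by interferon-γ and genes induced mainly by type I interferons moved differently between the libraries. Among the interferon-γ-inducible GTPases, which attack vacuoles of intracellular pathogens, Gbp2 (chr3:142620602-142638008) was measured at 242 CPM in control, 142 CPM in CCA and 38.5 CPM in CCANT, a log2 ratio of −2.65 (−2.97 to −2.34) for CCANT. Iigp1 stood at 423 CPM in control, 270.2 CPM in CCA and 82.3 CPM in CCANT, a CCANT ratio of −2.36 (−2.58 to −2.15), and Gbp5, which also takes part in inflammasome activation, at 85.4, 55.0 and 19.3 CPM, a ratio of −2.15. Control was highest for all 8 tested genes of this list, and CCANT was lowest for all 8. Of these 8, 7 fell in CCANT and 0 in CCA, where 1.98 and 1.04% of all tested genes fell, and Gbp8 did not, at −0.97. All 7 were past the limit within the Y-linked cells as well, and 6 of them in the core cells. The 15 genes of the list summed to 1446 CPM in control, 1037 CPM in CCA and 459.6 CPM in CCANT, giving −0.48 (−0.54 to −0.42) in CCA and −1.65 (−1.75 to −1.56) in CCANT, and the medians over the tested genes were −0.64 and −1.54. Within Y-linked cells the CCANT ratio to control was −1.60, and within Xist cells the ratio to CCA was −1.47. Within CCANT alone, the ratio of Xist to Y-linked cells was −0.25 (−0.46 to −0.045). The same genes summed to 2234, 879 and 469 CPM in MG, so the order of the libraries was also seen in MG, which stood above the myeloid cells in control and CCANT and below them in CCA.

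The factors that act in this pathway included several that fell. Irf1, an early interferon-γ target and activator, stood at 228 CPM in control, 154 CPM in CCA and 79.5 CPM in CCANT, a CCANT log2 ratio of −1.52 (−1.75 to −1.30). The kinase Jak2 (89.4, 74.0 and 39.7 CPM) and the feedback inhibitor Socs3 (207, 184 and 82.7 CPM) also fell in CCANT, by 1.17 and 1.32 on the log2 scale. Irf1, Jak2 and Socs3 were the genes that fell in CCANT among 10 tested interferon ligands, receptors and signalling genes, where 1.98% of all tested genes fell. The receptor chains did not follow. Ifngr1 was measured at 220.0, 211 and 242 CPM and Ifngr2 at 194, 192 and 169 CPM, and their CCANT ratios were 0.14 and −0.20. Ifnar1 and Ifnar2, the type I receptor chains, had ratios of −0.14 and 0.041. The ligand gene Ifng had 1 UMI in CCA cells and none in control or CCANT cells, and Ifnb1 and Ifna4 had none in any library.

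Type I interferon-stimulated genes were higher in CCA. Isg15, a ubiquitin-like protein, was measured at 56.6 CPM in control, 173 CPM in CCA and 69.9 CPM in CCANT, a CCA log2 ratio of 1.61 (1.38 to 1.84) and a CCANT ratio of 0.30 (0.011 to 0.60). Ifit3, which binds viral RNA together with its relatives, stood at 41.6 CPM in control, 160.2 CPM in CCA and 71.1 CPM in CCANT, with ratios of 1.95 (1.69 to 2.21) and 0.77 (0.46 to 1.09). Ifit2 (47.6, 145 and 50.2 CPM), Usp18 (32.5, 98.8 and 41.3 CPM), which removes Isg15 from proteins, Oasl1 (50.1, 129.7 and 26.9 CPM) and Rtp4 (47.1, 97.4 and 66.2 CPM) also rose in CCA. None of these genes rose in CCANT. Of 19 tested genes of the list, 6 rose and 0 fell in CCA, where 1.42% of all tested genes rose and 1.04% fell, and 0 rose and 1 fell in CCANT, where the shares were 2.34 and 1.98%. The medians were 0.90 and −0.066, and the sums were 3366 CPM in control, 4744 CPM in CCA and 2776 CPM in CCANT, with ratios of 0.50 (0.46 to 0.53) and −0.28 (−0.32 to −0.24). In the core cells the CCANT ratio was −0.039.

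The CCA value compares cells of different sex, and it was not repeated in a library of the same sex as control. Among Y-linked cells the CCANT ratio of the list to control was 0.0046, and among Xist cells the ratio of CCANT to CCA was −0.96. Within CCANT alone, the ratio of Xist to Y-linked cells was −0.44 (−0.52 to −0.36). In MG the list summed to 2501, 2448 and 1589 CPM. After thinning, Isg15 was detected in 8.79, 22.1 and 10.1% of myeloid cells and in 19.3, 23 and 18.8% of MG in control, CCA and CCANT. The MG share was above that of the myeloid cells in all 3 libraries, and a transfer of MG transcripts into myeloid droplets was not tested for this gene.

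The interferon-stimulated response element, read by Irf factors, was searched for by its core, 2 copies of GAAA separated by any 2 bases, on both strands of the same promoter windows. It was present in 12 of 21 type I genes with an entry and in 9 of 9 interferon-γ GTPases, against 3.99% of 27025 genes in the table, and in 0 of 8 class II genes and 0 of 16 homeostatic microglia genes. Both lists were chosen as interferon-induced genes, and a link between the core and their levels in these libraries was not tested. One window each is shown for Isg15 (chr4:156200877-156200906, minus strand) and Ifit3 (chr19:34583363-34583392, plus strand), which rose in CCA, and for Gbp2 (chr3:142620594-142620623, plus strand), which fell in CCANT. Capitals mark 1 match of the core, which in Ifit3 and Gbp2 lies on the strand opposite to the gene. In Gbp2 the match lies 59 bases before the RefSeq start, which differs from the start of the gene span printed above. The promoters of Isg15 and Ifit3 held 3 and 2 matches, and in Isg15 a further match overlaps the one in capitals.
Isg15: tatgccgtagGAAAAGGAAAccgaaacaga
Ifit3: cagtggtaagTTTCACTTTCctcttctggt
Gbp2: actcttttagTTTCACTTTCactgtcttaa

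**Figure D3:**
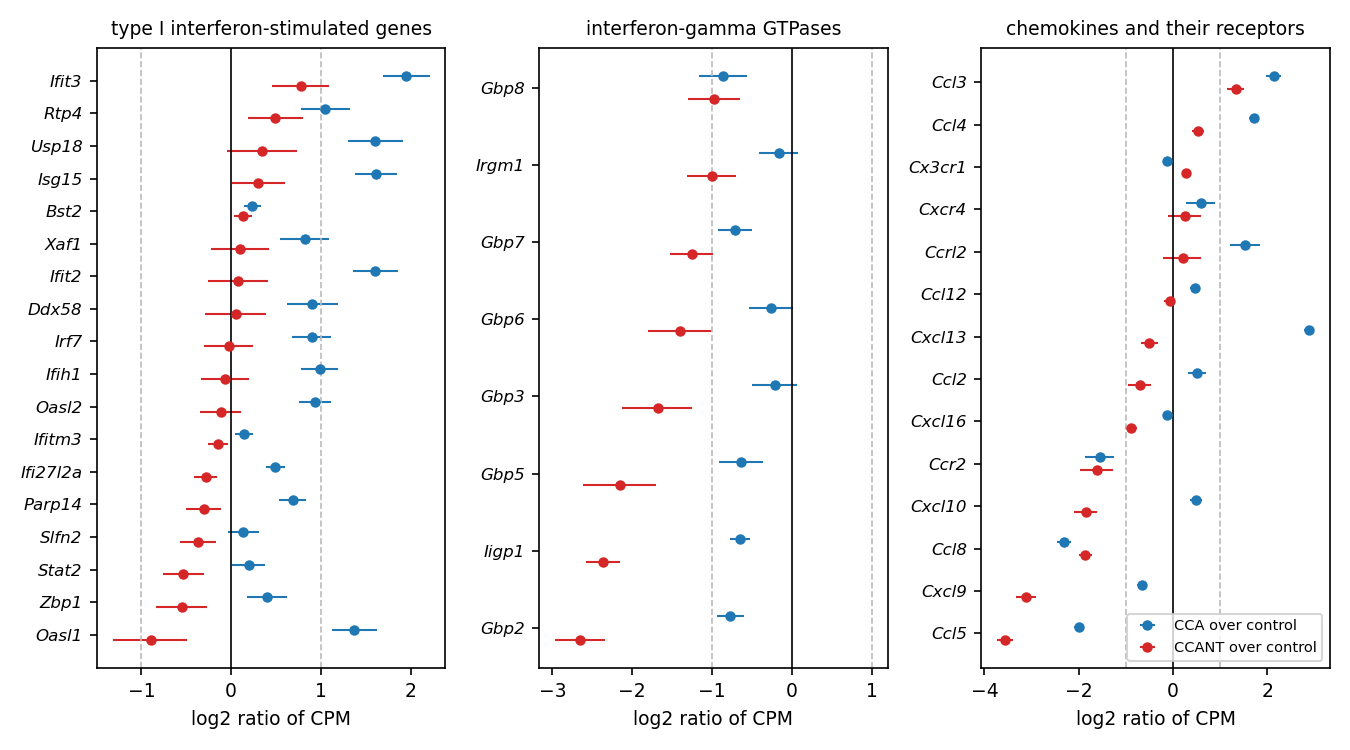
Log2 ratio to control in myeloid cells of CCA and CCANT for tested genes reported here of the interferon-γ GTPase, type I interferon-stimulated and chemokine lists, with bars for exact Poisson 95% intervals and dashed lines at the 2-fold limit. Gbp2 lay at −2.65 and Ccl5 at −3.56 in CCANT, and Ifit3 at 1.95 and Cxcl13 at 2.88 in CCA.

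Chemokine genes differed in both directions. Ccl5 (chr11:83525778-83530518), which attracts T cells and monocytes, was measured at 1464 CPM in control, 367 CPM in CCA and 124 CPM in CCANT, with log2 ratios of −2.00 (−2.09 to −1.90) in CCA and −3.56 (−3.73 to −3.39) in CCANT. Cxcl9 (chr5:92321347-92328079), an interferon-γ-induced attractant for T cells that carry Cxcr3, stood at 647 CPM in control, 409.7 CPM in CCA and 74.7 CPM in CCANT, with ratios of −0.66 (−0.76 to −0.56) and −3.11 (−3.34 to −2.90). Cxcl10, which acts on the same receptor, was measured at 246 CPM in control, 347 CPM in CCA and 68.2 CPM in CCANT and fell in CCANT, at −1.85 (−2.10 to −1.62). These 3 genes were at their lowest in CCANT, and Ccl5 was the only one of them to fall in CCA. After thinning, Ccl5 was detected in 53.3, 24.0 and 14.9% of cells. Within each sex, Ccl5 stood at −3.54 for CCANT against control and −2.35 against CCA, and Cxcl9 at −3.04 and −2.92. Cxcl10 was not past the limit against control among Y-linked cells, at −0.67 (−1.02 to −0.34), and stood at −5.76 against CCA among Xist cells. Single cells weighed on Cxcl9, of which the highest cell held 18.3, 39.4 and 22.6% of the UMIs in control, CCA and CCANT.

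Another set of chemokines was higher in CCA. Cxcl13 (chr5:95956951-95961068), an attractant for B cells, was measured at 222 CPM in control, 1638 CPM in CCA and 157 CPM in CCANT, a CCA ratio of 2.88 (2.78 to 2.99), and the highest cell held 21.4, 19.2 and 25.1% of its UMIs. After thinning it was detected in 8.79, 31.8 and 7.74% of cells. Within CCANT, Cxcl13 was close to absent from Xist cells, at 4.37 CPM and with a ratio of −8.49 (−10.37 to −7.13) to CCA, while its Y-linked cells were at 0.30 against control. Ccl3 and Ccl4, chemokines that microglia release on activation, stood at 101 CPM in control, 443 CPM in CCA and 253 CPM in CCANT and at 242, 789 and 348 CPM. Both rose in CCA, by 2.13 (1.97 to 2.3) and 1.71 (1.60 to 1.82), and of the pair Ccl3 rose in CCANT over all cells, by 1.32 (1.14 to 1.51). Within the Y-linked cells both were past the limit in CCANT, Ccl3 at 2.07 and Ccl4 at 1.27 (1.09 to 1.45). Ccl3 was detected in 11, 34.4 and 26.2% of thinned cells. Ccrl2, a non-signalling chemokine receptor, rose in CCA at 1.52. Tnf, a cytokine induced with Ccl3 and Ccl4 by NF-κB, was measured at 41.3 CPM in control, 95.4 CPM in CCA and 52.2 CPM in CCANT and rose in CCA, at 1.21 (0.93 to 1.49).

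Ccl8 (693, 141 and 191 CPM), an attractant for monocytes, fell in both libraries, and in CCANT 1 cell held 67.7% of its UMIs. Ccr2, the monocyte receptor for Ccl2, stood at 106 CPM in control, 36.0 CPM in CCA and 34.5 CPM in CCANT and fell in both, by 1.55 and 1.61 on the log2 scale. Within the Y-linked cells neither was past the limit in CCANT, Ccr2 at −0.73 (−1.17 to −0.32) and Ccl8 at −0.87. Plac8 and Ly6c2, further monocyte genes under the level filter, were at 78.3, 27.8 and 0 CPM and 19.5, 31.2 and 4.82 CPM. Of 15 tested chemokine and receptor genes, 4 rose and 3 fell in CCA, and 1 rose and 5 fell in CCANT, against 1.42 and 1.04% of all tested genes in CCA and 2.34 and 1.98% in CCANT. Of the 5 CCANT falls 2, those of Ccl5 and Cxcl9, were past the limit within the Y-linked cells. The list summed to 6439 CPM in control, 6998 CPM in CCA and 3969 CPM in CCANT, with ratios of 0.12 (0.094 to 0.15) and −0.70 (−0.73 to −0.66). Its medians were 0.46 and −0.50. Among Y-linked cells the CCANT ratio of its sum to control was −0.32, and among Xist cells that to CCA was −0.84. Within CCANT alone, the ratio of Xist to Y-linked cells was −0.32. Among 11 tested cytokine and cytokine receptor genes only Tnf passed the limit, in CCA, where 1.42% of all tested genes rose. Il1b was measured at 261, 311 and 157 CPM and Il1a at 98.6, 98.8 and 69.0 CPM.

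Homeostatic microglia genes did not fall as a group. P2ry12, the purine receptor that guides process movement, was measured at 269.8 CPM in control, 239 CPM in CCA and 363 CPM in CCANT, and Tmem119, a marker that separates microglia from other macrophages, at 196, 185 and 219.6 CPM. Sall1, a transcription factor of microglial identity, stood at 85.4, 62.1 and 65.4 CPM. None of these 3 passed the limit. The list of 20 genes, of which 18 were tested, summed to 4211 CPM in control, 4436 CPM in CCA and 5478 CPM in CCANT, with ratios of 0.075 (0.042 to 0.11) and 0.38 (0.35 to 0.41) and medians of 0.027 and 0.24. In CCA 1 gene rose and 1 fell, and in CCANT 2 rose and 1 fell, against 1.42 and 1.04% of all tested genes in CCA and 2.34 and 1.98% in CCANT. Within Y-linked cells the CCANT ratio to control was 0.50 and within Xist cells that to CCA was 0.46. In the core cells the sum gave −0.042 for CCA, opposite in sign to the value over all cells, and 0.46 for CCANT.

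Fcrls (chr3:87250758-87263738), a scavenger receptor-like gene usually counted among microglial signature genes, ranked first among the CCANT rises of genes at least as high in the myeloid cells as elsewhere. It was measured at 52.1 CPM in control, 167 CPM in CCA and 427 CPM in CCANT, with log2 ratios of 1.68 (1.44 to 1.92) in CCA and 3.04 (2.82 to 3.26) in CCANT, and it was detected in 6.59, 26.0 and 42.9% of thinned cells. In Y-linked cells the CCANT ratio to control was 2.98 and in Xist cells that to CCA was 1.79. MG held 0.0451, 0.191 and 0.395 CPM of it. Gpr34, a lysophosphatidylserine receptor of microglia, stood at 88.6 CPM in control, 111 CPM in CCA and 206 CPM in CCANT and rose in CCANT, at 1.21 (1.02 to 1.41). Crybb1, a crystallin gene expressed in microglia, was measured at 98.9 CPM in control, 20.7 CPM in CCA and 37.7 CPM in CCANT and fell in both, at −2.26 (−2.67 to −1.86) and −1.39 (−1.73 to −1.06).

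Injury-associated microglia genes were dominated by Apoe (chr7:19696109-19699188), which encodes the lipid carrier apolipoprotein E. It was measured at 11980.2 CPM in control, 16628 CPM in CCA and 28883 CPM in CCANT, with ratios of 0.47 (0.45 to 0.49) and 1.27 (1.25 to 1.29), and it rose in CCANT only. Within sex its CCANT ratios were 1.23 to control and 1.16 to CCA. MG, which also express Apoe, held 9060.0, 10882 and 12532 CPM, below the level of the myeloid cells of the same library in each case. Gpnmb, a glycoprotein of lipid-laden macrophages, stood at 35.5 CPM in control, 47.5 CPM in CCA and 133 CPM in CCANT and rose in CCANT, at 1.90 (1.61 to 2.20), although 1 cell held 46.8% of its CCANT UMIs. Cst7, a cystatin of the disease-associated state (142, 90.0 and 59.4 CPM), and Itgax, the integrin CD11c (94.1, 107 and 40.1 CPM), fell in CCANT, by 1.26 and 1.23 on the log2 scale. Axl, a receptor for dying cells, was measured at 228, 294 and 222 CPM and Lgals3, a galectin, at 238, 271 and 128 CPM, and neither passed the limit. Spp1, osteopontin, was under the level filter at 1.25, 39.4 and 55.8 CPM.

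The 18 tested genes of this list thus gave no single direction. In CCA 2 rose and 1 fell, and in CCANT 3 rose and 2 fell (all tested genes, 1.42, 1.04, 2.34 and 1.98%), with medians of 0.19 and −0.089. The list summed to 26123 CPM in control, 32310.2 CPM in CCA and 42478 CPM in CCANT, with ratios of 0.31 (0.29 to 0.32) and 0.70 (0.69 to 0.71), and the CCANT ratio was 0.84 in the core cells. Without Apoe the CCANT ratio was −0.057, the opposite sign. Ccl3 and Ccl4 are counted in this list as well as among the chemokines. Of 23 tested lysosome and lipid genes, Apoe was the only one to rise in CCANT and Fabp5, a fatty acid binding protein, the only one to fall in CCA, against 2.34% of all tested genes that rose in CCANT and 1.04% that fell in CCA. Ctsd, a lysosomal protease, stood at 1555 CPM in control, 2326 CPM in CCA and 2666 CPM in CCANT, with a CCANT ratio of 0.78 (0.73 to 0.83) over all cells and 1.02 among Y-linked cells, while Ctsb, another lysosomal protease (1503, 1545 and 1522 CPM), lay close to control.

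Macrophage genes were higher in CCANT. Ms4a7, a membrane protein of border and monocyte-derived macrophages, was measured at 308 CPM in control, 520.1 CPM in CCA and 689 CPM in CCANT, with ratios of 0.76 (0.65 to 0.87) and 1.16 (1.06 to 1.27). Stab1, a scavenger receptor, stood at 73.8 CPM in control, 105 CPM in CCA and 205 CPM in CCANT and Dab2, an endocytic adaptor, at 35.5, 52.6 and 105 CPM, and they rose in CCANT at 1.47 (1.26 to 1.68) and 1.56 (1.26 to 1.86). Mrc1, the mannose receptor, was measured at 64.1 CPM in control, 47.5 CPM in CCA and 118 CPM in CCANT and did not pass the limit over all cells, at 0.89 (0.64 to 1.13), but did so among Y-linked cells, at 1.52 (1.23 to 1.82), and among Xist cells against CCA, at 1.09. Maf, a transcription factor of macrophages and microglia that is not in this list, rose in CCANT from 161 to 458 CPM, with 268 in CCA, at 1.51 (1.37 to 1.65). Pf4, a chemokine of border macrophages, was under the level filter at 11.8, 12.2 and 88.3 CPM, with 45.9% of its CCANT UMIs in 1 cell. Of 7 tested genes of the list of 14, 3 rose and none fell in CCANT, where 2.34% of all tested genes rose, and none passed the limit in CCA. The list summed to 929 CPM in control, 1319 CPM in CCA and 1810.5 CPM in CCANT, with ratios of 0.51 (0.44 to 0.57) and 0.96 (0.90 to 1.03) and medians of 0.50 and 0.89.

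The cells were divided by the macrophage markers Mrc1, Cd163, Pf4, F13a1, Lyve1, Cbr2 and Ms4a7, which is a cut through a range and not a division into types. At least 5 UMIs per 10000 of these genes were held by 47 control cells (24.7%, interval 18.8 to 31.5%), 64 CCA cells (41.0%, interval 33.2 to 49.2%) and 71 CCANT cells (42.0%, interval 34.5 to 49.8%). Near the cut, 14, 9 and 9 cells lay between 3 and 5 and 15, 16 and 5 between 5 and 8. With cells thinned to 2000 UMIs, at least 1 marker UMI was found in 33.5, 47.4 and 48.2%. Cells above the cut held 6.37, 6.77 and 0 CPM of Sall1 in control, CCA and CCANT, and cells below it 115, 99.2 and 122. P2ry12 stood at 87.3, 89.7 and 235 above and 339, 339.6 and 472 below. Siglech, Gpr34 and Olfml3 were also lower above the cut in each library. Tmem119 differed less than P2ry12, at 135, 145 and 177 above and 220, 212 and 257 below. Fcrls went the other way, at 143, 173 and 583 above and 17.6, 163 and 292 below. Lyz2, a lysozyme abundant in macrophages, stood at 4865, 5017 and 4202 above and 1795, 1005 and 1216 below.

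The class II difference was seen on both sides of this cut. Class II genes summed to 20559, 13329 and 5323 CPM in control, CCA and CCANT cells below the cut, with log2 ratios of −0.63 and −1.95, and to 40243, 35042 and 18061 above it, with ratios of −0.20 and −1.16. Cells above the cut held more class II in every library. The interferon-γ GTPases had CCANT ratios of −1.87 below and −1.26 above, and CCA ratios of −0.77 below and 0.045 (−0.063 to 0.15) above. The type I genes had CCANT ratios of −1.01 below and 0.30 above the cut, and CCA ratios of 0.31 and 0.75. Homeostatic genes stood at 4929, 5459 and 6704 CPM below the cut, with CCA and CCANT ratios of 0.15 and 0.44. Above the cut they stood at 2319, 2909 and 4060 CPM, with larger ratios of 0.33 and 0.81. Apoe was measured at 9236, 9894 and 14752 CPM below and 19208, 26674 and 45223 above, so it was higher in CCANT in both.

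**Figure D4:**
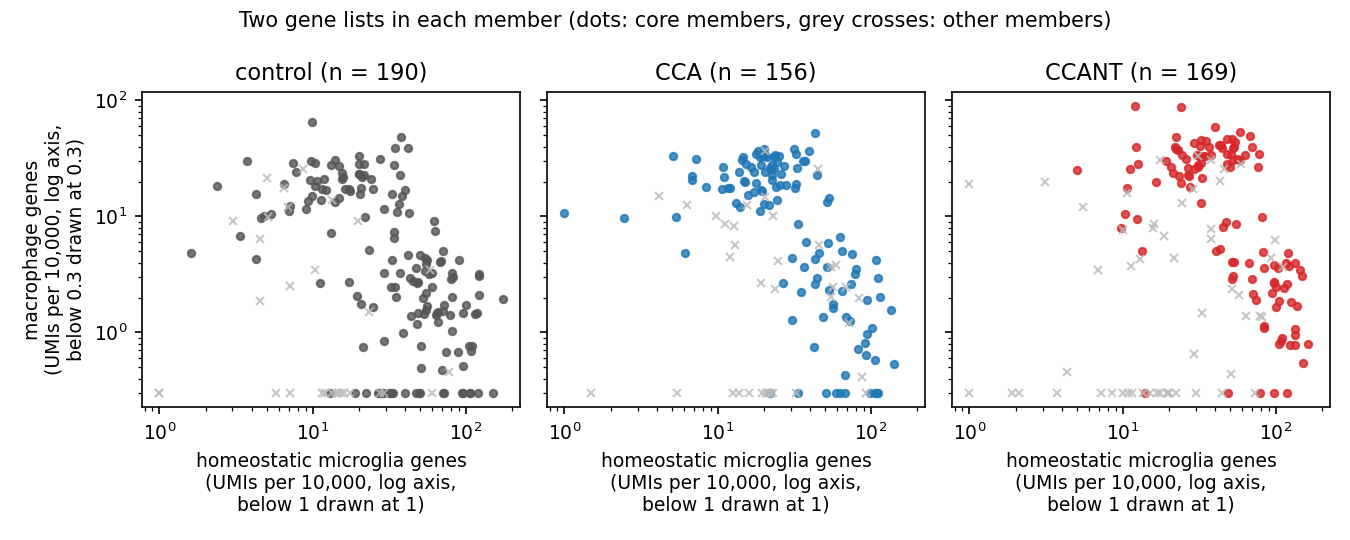
Summed homeostatic microglia genes without Jun (x axis) and macrophage genes (y axis) in each myeloid cell, as UMIs per 10000 on log axes, in control (n = 190), CCA (n = 156) and CCANT (n = 169). Dots are core cells and grey crosses other cells, and within the core cells of each library the values ran in opposite directions (Spearman −0.60, −0.64 and −0.58).

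Among core cells, the levels of the homeostatic list, taken here without Jun, and of the macrophage list ran in opposite directions. Spearman coefficients were −0.60, −0.64 and −0.58 over 160 control, 120 CCA and 115 CCANT cells. Class II went with the macrophage genes, at 0.57, 0.65 and 0.49, and against the homeostatic genes, at −0.63, −0.78 and −0.51. Apoe went with the macrophage genes, at 0.55, 0.56 and 0.61. The type I interferon-stimulated genes and the interferon-γ GTPases also ran together from cell to cell, at 0.56, 0.64 and 0.45. Class II and the GTPases gave 0.080, 0.28 and 0.48. These are descriptions of cells that share a library and its free RNA, and the lists share a total by construction.

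Among the complement genes, C3 and Cfb were lower than in control. The C1q genes belong to the rule and are only described, and C1qa stood at 5581, 5402 and 4674 CPM. C3, the central complement component, was measured at 431 CPM in control, 147 CPM in CCA and 65.4 CPM in CCANT and fell in both libraries, at −1.55 (−1.70 to −1.39) and −2.72 (−2.96 to −2.49). Cfb, a factor of the alternative pathway, stood at 151, 79.8 and 54.6 CPM and fell in CCANT. Among 11 tested complement genes, C3 fell in CCA and C3, Cfb and Itgax fell in CCANT, where 1.04 and 1.98% of all tested genes fell. The C1q genes, by which the cells were chosen, are part of these 11. Itgax is also counted among the injury-associated genes. Within sex, C3 had CCANT ratios of −2.25 and −2.01, and Cfb was at −0.99 among Y-linked cells. Of 18 tested phagocytic and sensing receptors, Fcgr2b, the inhibitory receptor for IgG (357, 162 and 210.4 CPM), fell in CCA, as did 1.04% of all tested genes, and none passed the limit in CCANT. Trem2, a lipid-sensing receptor needed for the injury response of microglia, stood at 652, 630.4 and 776 CPM.

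Further genes came from the ranking of all genes that were at least as high in the myeloid cells as elsewhere. Saa3, an acute-phase gene, was measured at 160.2 CPM in control, 4.41 CPM in CCA and 34.1 CPM in CCANT, with ratios of −5.18 (−6.1 to −4.40) and −2.23 (−2.58 to −1.90), and the highest cell held 25.3% of its control UMIs. Among Y-linked cells its CCANT ratio was −0.86, within the limit. Acod1, which makes itaconate in activated macrophages, stood at 111 CPM in control, 101 CPM in CCA and 11.2 CPM in CCANT, a CCANT ratio of −3.30 (−3.91 to −2.75). Cd274, the inhibitory ligand PD-L1, was measured at 218 CPM in control, 126 CPM in CCA and 38.1 CPM in CCANT, a CCANT ratio of −2.52 (−2.84 to −2.21). Il18bp, an inhibitor of interleukin 18, stood at 93.6, 33.3 and 27.3 CPM and fell in both libraries. Hcar2, a receptor for ketone bodies and nicotinic acid, was measured at 101, 41.1 and 16.1 CPM, and Dnase1l3, a secreted DNase, at 117, 92.7 and 23.7 CPM. Hcar2 fell in both libraries and Dnase1l3 in CCANT.

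The rises of this ranking in CCA included Plaur, the urokinase receptor (24.0, 97.1 and 48.6 CPM), Nfkbid, an atypical IκB protein (27.5, 91.0 and 73.5 CPM), Pde7b, a cAMP phosphodiesterase (95.6, 306 and 295 CPM), and Ifi203, an interferon-inducible gene (51.1, 160.2 and 99.2 CPM). Plaur, Nfkbid and Pde7b also rose in CCANT, Plaur by 1.02 over all cells but 0.94 among Y-linked cells, and Ifi203 was at 0.96 there. Gm17268 (35.8, 116 and 93.1 CPM) rose in both. Among its falls, Frmpd4 (319.9, 112 and 50.2 CPM) fell in both libraries and was at −2.67 in CCANT. Ddhd1, a phospholipase gene (268, 107 and 106 CPM), fell in both, and Rad51b, a DNA repair gene (351, 123 and 189.9 CPM), in CCA.

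Genes that move with cell handling were near their control level in most cases. Of 18 tested immediate-early and dissociation genes, only the heat shock gene Hspa1b (29.5, 92.0 and 65.8 CPM) passed the limit, and it rose in both libraries, as did 1.42% of all tested genes in CCA and 2.34% in CCANT. Fos stood at 644, 814 and 589 CPM and Jun at 479, 609.7 and 697 CPM. Proliferation genes summed to 289 CPM in control, 439 CPM in CCA and 286 CPM in CCANT, with Mki67 at 32.8, 43.5 and 27.7 CPM, and 1 of the 15 passed the level filter. Histone deacetylase genes, whose products TSA inhibits, summed to 493, 558 and 670.0 CPM, and none of 3 tested rose or fell over all cells. Within the Y-linked cells Hdac9 was past the limit in CCANT, at 1.25, and the list's ratio was 0.63 (0.50 to 0.76). Astrocyte genes summed to 64.1 CPM in control, 56.0 CPM in CCA and 324 CPM in CCANT, and Gfap, an intermediate filament of astrocytes and reactive MG, stood at 6.01, 9.84 and 157 CPM in the myeloid cells and at 23.4, 67.1 and 96.5 in MG. Gfap was past the limit in CCANT in the core cells as well, at 3.54, and in the Y-linked cells, at 3.96. Within CCANT the astrocyte genes stood at 221 CPM in Y-linked cells and 76.6 CPM in Xist cells. Both values lay below the 324 CPM of the library, so its other cells, 10 assigned to both sexes and 46 to neither, stood higher. Bipolar and amacrine cell genes summed to 559 CPM in control, 412 CPM in CCA and 1004 CPM in CCANT. Over all cells 2 of 3 tested rose in CCANT, as did 2.34% of all tested genes. In the Y-linked cells none of the 3 was past the limit upwards and 2 were past it downwards, and in the core cells the numbers were 0 and 1. Of all 3940 tested genes, 80 were past it upwards and 107 downwards in the Y-linked cells, and 61 and 96 in the core cells. Within CCANT they stood at 1046 CPM in Xist cells and 378 CPM in Y-linked cells. The part of astrocyte, bipolar, amacrine, MG and rod transcripts in the myeloid results was not tested beyond the values in the core cells.

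Clustering of the 515 cells on all their genes gave 8 clusters, and since the genes that differed between libraries also set the clusters, nothing is read from their sizes. They are given to show which cells the values of each library came from. Of the 190 control cells, 58 lay in cluster 1 and 45 in cluster 2, of the 156 CCA cells 48 in cluster 2 and 28 in cluster 1, and of the 169 CCANT cells 43 in cluster 4, 26 in cluster 1 and 24 in cluster 8. Cluster 4 held 14 control and 9 CCA cells. Cluster 1 (112 cells) was led by Cst7, Crybb1 and Lag3 and held 459 CPM of P2ry12 and 159.9 of Sall1. Cluster 2 (108 cells) was led by Plac8, Gpr141 and Ccr2 and held 825 CPM of Ms4a7 and 17558 of Cd74, with Sall1 at 3.88. Cluster 3 (69 cells) was led by Top2a and histone genes, at a median of 4442 UMIs per cell. Cluster 4 (66 cells) was led by Fcrls, Spp1, Saa3 and Dab2 and held 1417 CPM of Ms4a7 and 46139 of Apoe, with Sall1 at 1.87. Fcrls stood at 737 CPM in cluster 4 and at 48.2 to 269 CPM in the other clusters, with the lowest value in cluster 2. Cluster 7 (38 cells) was led by Tafa1 and Siglech, with P2ry12 at 1088 and Ms4a7 at 1.66. Clusters 5, 6 and 8 (49, 41 and 32 cells) were led by photoreceptor or neuronal genes, and Scrublet, which marked no control myeloid cell, marked 18.4, 29.3 and 6.25% of their cells as doublets.

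**Figure D5:**
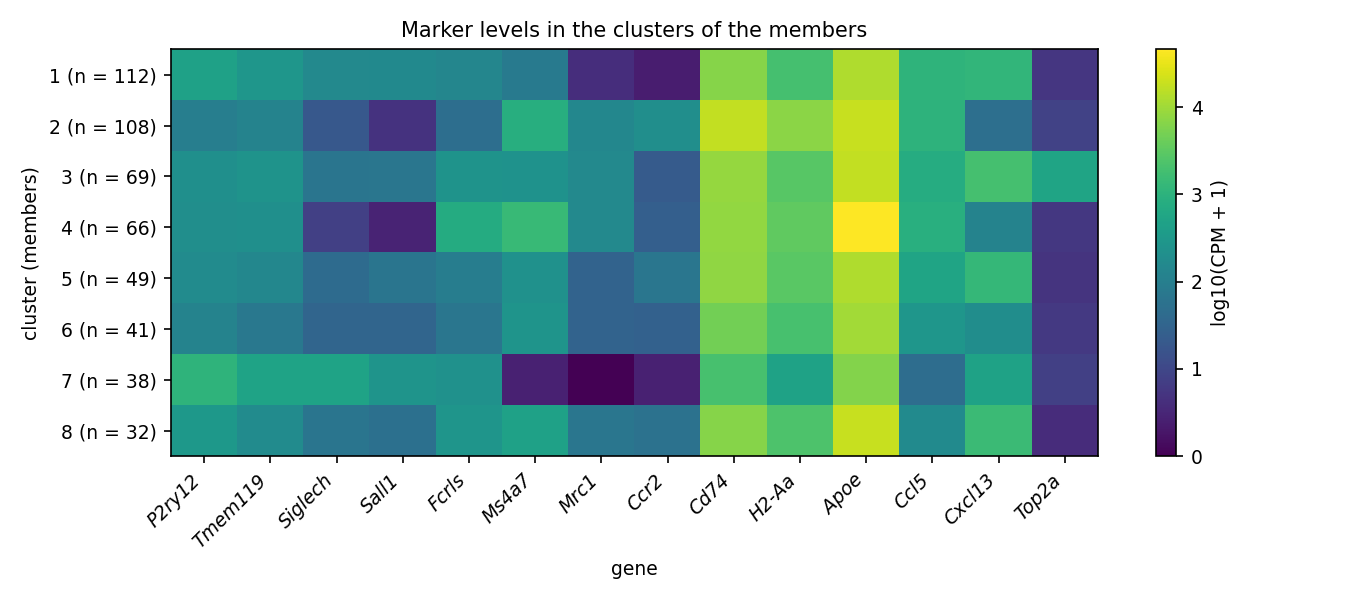
Level of 14 marker genes in the 8 clusters of the 515 myeloid cells, as log10 of CPM plus 1 (colour), with the number of cells beside each cluster. P2ry12 is highest in cluster 7, at 1088 CPM.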

How the data were processed

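Single-cell RNA sequencing (10x Genomics) was performed by the authors on 1 library of sorted cells per treatment. The deposited values are whole-number counts of UMIs per gene and barcode, which the authors made with Cell Ranger 6.1.1 on mm10 with tdTomato and GFP added and intronic reads included. The filtered matrices held 12482, 14201 and 15923 barcodes for control, CCA and CCANT and 224515457, 219051219 and 222497877 UMIs. A joint count table of the cells that the authors kept as MG was used for its cell names only, and 1 myeloid cell, of CCA, was among them. No per-sample column was left unused. A few genes of the lists stayed in the sums and counts but are not reported here by name.

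The UMIs of the chosen cells were summed per library and scaled to CPM. With 1 library per treatment there was no test, and ratios carry exact conditional Poisson intervals and shares exact Clopper-Pearson intervals (95%), which cover counting error alone. The members and gene lists were chosen with earlier results of these data known. Genes named outside the lists were the 10 highest rises and 10 deepest falls per comparison, ranked by the interval bound nearest to no change, among tested genes at least as high in myeloid as in other cells, without sex-linked, transgene and immunoglobulin genes. Cells that are shared or mixed were looked for: 1, 3 and 3 myeloid barcodes of control, CCA and CCANT also occurred in another library, and Scrublet (scanpy 1.11.5, expected rate 5%) marked 0.00879, 6.69 and 8.15% of cells, so it did not work in control, and doublets were kept. Clusters were made with Leiden (leidenalg 0.10.2) on 2000 variable genes, 15 components and 15 neighbours at resolution 0.5. Simulated counts for the 3940 tested genes returned all 100 genes changed by a log2 of 1.5 and all 100 changed by 2 in each comparison. These were Poisson draws without spread between cells or animals, so they check the calculation only and not the calls in the real cells. Computation used Python 3.11.15, NumPy 2.4.6, SciPy 1.17.1 and pandas 2.3.3.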

Additional observations from a re-analysis of the deposited data

How the results depend on the processing

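Of 141 alternative values, 73 stayed within the counting interval of the reported value or, for counts of genes, within 1.5 times of it, 64 moved further and 4 changed sign, and 78 of 82 alternative list ratios kept their sign. The log2 ratios against control that changed sign were the homeostatic list in CCA, at −0.042 in the core cells and −0.0034 as a mean over cells, the type I interferon list in CCANT, at 0.0046 among Y-linked cells, and the injury-associated list in CCANT without Apoe, at −0.057 (0.15 in CCA). At least 2000 features per cell gave 0.27 for injury-associated genes in CCA and −1.17 for class II in CCANT. A minimum of 20 rule-gene UMIs per 10000 gave 0.040 for homeostatic genes in CCA, and 0.72 for injury-associated genes and −1.16 for class II in CCANT. Limits of 20 for Igkc and 10 for MG genes gave a CCANT share of 0.973%, 0.46 (type I) and −0.18 (class II) in CCA, and 0.33 (homeostatic) and −1.12 (class II) in CCANT. Without cells that Scrublet marked, 95 genes fell in CCA and 49 rose in CCANT, and the lists gave 0.12, 0.39, 0.59 and −0.12 in CCA and 0.51, 0.79, −0.22 and −1.16 in CCANT (homeostatic, injury-associated, type I and class II, in this order from here on). Without cells above the macrophage-marker cut, 105 genes rose in CCA, and 214 rose and 120 fell in CCANT, with 0.15, 0.14, 0.31 and −0.63 in CCA and 0.44, 0.27, −1.01 and −1.95 in CCANT. Without the highest 5% of Scrublet scores the CCA ratios were 0.011, 0.34, 0.54 and −0.17, and the injury-associated ratio in CCANT 0.72. In the core cells 47 genes rose in CCANT, where the ratios were 0.46, 0.84, −0.039 and −1.10, and class II in CCA was at −0.13. Median-of-ratios scaling gave 0.68 for injury-associated genes in CCANT. As means over cells, injury-associated genes gave 0.44 in CCA, and injury-associated, type I and class II genes gave 0.67, −0.37 and −1.43 in CCANT. Y-linked cells gave 0.50, 0.77 and −0.86 for homeostatic, injury-associated and class II genes in CCANT against control. Xist cells gave 0.46, 0.64, −0.96 and −1.27 in CCANT against CCA, with 116 genes lower. With no CPM minimum, 312 genes rose and 386 fell in CCA and 594 rose and 344 fell in CCANT, of 11758 tested, and with a limit of 1.5-fold the counts were 163, 119, 256 and 209. The alternatives with the core cells, the highest 5% of Scrublet scores and the list without Apoe, and the counts of single-gene calls in Y-linked and core cells, were chosen after seeing the data, and the cause of these shifts was not tested. No paired analysis was possible because each treatment was a single library, and for the same reason no replicate could be left out.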
